A study of Homo sapiens with 18 samples.

Results

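NRF2 antioxidant and ferritin genes are 10 genes, NFE2L2, HMOX1, NQO1, GCLM, GCLC, TXNRD1, SRXN1, TXN, FTL and FTH1, chosen by name as the rows of the deposited table whose Ensembl identifier carries these symbols, out of 63677 genes in the table. The data were 18 RNA libraries of THP-1 cells, a line derived from a human monocytic leukaemia. The conditions were knockdown of TRAFD1 by siRNA (KD), a non-targeting scrambled siRNA (SCR) and no siRNA (WT), with siRNAs at 25 nM, and 72 h after transfection the cells were given either LPS from Escherichia coli at 10 ng/ml or medium alone for 4 h. WT cells were described in 2 ways, as left untreated and as given the transfection mix without siRNA, so that reagent and siRNA cannot be told apart in a comparison of SCR or KD with WT. Each of the 6 groups, WT, SCR and KD without LPS (unstimulated, replicates 1 to 3) and with LPS (replicates 4 to 6), held 3 libraries from cells grown in triplicate. All groups are the same cell line, and a single TRAFD1 siRNA was used.

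NRF2, the product of NFE2L2, is a transcription factor that KEAP1 holds in check and marks for degradation, and that accumulates when KEAP1 is modified by electrophiles or oxidants. With small MAF proteins it binds antioxidant response elements and switches on genes for glutathione synthesis (GCLC and GCLM, the catalytic and modifier subunits of glutamate-cysteine ligase), the thioredoxin system (TXN, its reductase TXNRD1, and SRXN1, which repairs overoxidised peroxiredoxins), quinone reduction (NQO1) and haem breakdown (HMOX1). Ferritin, built of heavy (FTH1) and light (FTL) chains, stores iron such as that freed by HMOX1, and its mRNAs also carry an iron-responsive element that controls their translation. Much of NRF2 control acts on protein stability, which mRNA counts do not show.

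The libraries held 8206023 to 22344279 counts, and the 3 counts that a count of 0 allows came to between 0.133 and 0.378 CPM (counts per 1000000 of a library total scaled by TMM) in a library. These floors cover counting error only, whereas the 95% intervals given with fold changes come from the edgeR fit and take in the spread between libraries. Most genes listed for monocytic cells were present, with 9 of 10 markers tested, among them PTPRC (2308 to 5800 counts) and SPI1 (500 to 1560 counts). MPO, also tested, had only 2 to 49 counts, and CEBPA at most 2. Markers of monocytic cells summed to 978 to 1210 CPM, whereas those of T cells, B cells, epithelial cells, fibroblasts and erythroid cells summed to at most 0.616, 4.28, 3.16, 2.94 and 0.252 CPM in any library. The siRNA target TRAFD1 had 26.8, 20.1 and 24.3 CPM in unstimulated SCR and 11.6, 5.37 and 9.0 CPM in unstimulated KD (log2 fold change -1.45, edgeR adjusted p 0.0277), and 21.9, 27.5 and 18.7 against 15.8, 14 and 13.8 CPM with LPS (-0.65, edgeR adjusted p 0.262). The TRAFD1 call without LPS held in 3 of 6 fits that left out a library (edgeR adjusted p up to 0.119, without SCR replicate 1). LPS raised TNF in WT from a mean of 15.9 to 141 CPM, IL1B from 1.79 to 29.2 CPM and CXCL10 from 2.26 to 304 CPM. Unstimulated KD held the pair of libraries that differed most within a group. Its replicate 1 differed from replicates 2 and 3 by a chi-square of 36.5 and 22.7 per gene, and replicates 2 and 3 by 18.1. Pairs within the other groups gave 5.29 to 19.4. This statistic also grows with the counts of a pair.

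Because a QuantSeq fragment stands for the 3′ end of a transcript, CPM was not divided by gene length. Levels of different genes still depend on whether transcripts end within the 500 bases counted and on reads shared with similar sequences. The levels below are therefore compared as counts, not as amounts of transcript. Ferritin stood far above the rest, with group means of 3790 to 5080 CPM for FTL and 2420 to 5600 CPM for FTH1. Group means were 140 to 418 CPM for TXN, 85.7 to 271 for GCLM, 118 to 181 for NQO1, 62.6 to 189 for TXNRD1, 19.5 to 218 for HMOX1, 45.1 to 115 for NFE2L2 and 17.2 to 21.5 for GCLC. Their order differed between groups. In LPS-treated WT, TXN (141) lay below GCLM (237), HMOX1 (217) and NQO1 (181). SRXN1 had 0 counts in all 18 libraries. The terminal 500 bases of SRXN1 (GRCh37 chromosome 20, from 627259 to 627758) were read from a GENCODE annotation later than the authors' Ensembl release. The bases that the authors counted may therefore differ. In the GENCODE annotation they are overlapped on the same strand by ENSG00000270299, also without counts. Whether SRXN1 is expressed cannot be read from these counts. The 9 members tested are therefore not all members. In the same GENCODE annotation the terminal 500 bases of NFE2L2 are overlapped on the other strand by HNRNPA3 and those of FTH1 by BEST1. Whether the counting used strand is not given in the sources used here.

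**Figure D1:**
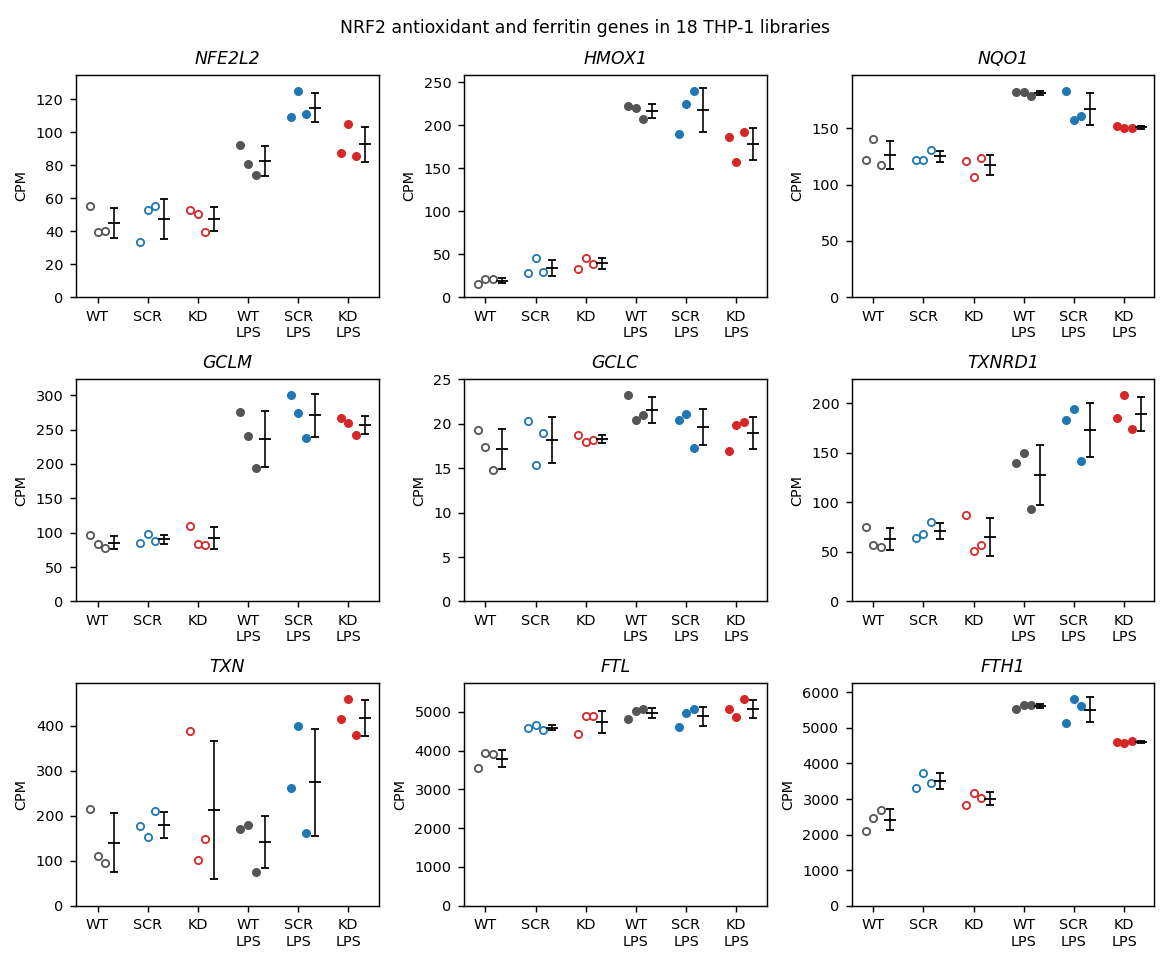
Level of the 9 members with counts in every library, in CPM on linear axes that start at 0; open points are unstimulated and filled points LPS-treated libraries of WT (grey), SCR (blue) and KD (red), and black bars are the mean with its SD (n = 3). HMOX1, GCLM and FTH1 show the LPS-treated libraries well above the unstimulated ones in all 3 conditions, whereas the TXN libraries of a group are spread widely.

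LPS changed more members than either siRNA did. In WT 7 of the 9 members tested were higher with LPS and 0 lower, where 7.01% of the 16678 genes tested were higher and 7.26% lower. In SCR 6 were higher and 0 lower, with 8.64% and 8.56% of all genes, and in KD again 6 and 0, with 6.41% and 5.05% of all genes. The median log2 fold change of the members was 0.87, 0.65 and 0.97 in WT, SCR and KD, and that of all genes -0.03, -0.03 and -0.0029. HMOX1, GCLM, TXNRD1, NFE2L2, NQO1 and FTH1 rose in all 3 conditions, and FTL passed the threshold in WT. In such bulk samples a change in the number of responding cells and in the RNA of each cell cannot be told apart.

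HMOX1 (ENSG00000100292, GRCh37 chromosome 22, from 35776354 to 35790207), the inducible haem oxygenase, rose most. In WT it went from 15.8, 21.6 and 21.0 CPM to 223, 220 and 208 CPM with LPS. In SCR the libraries held 27.8, 45.4 and 29.3 CPM unstimulated and 190, 225 and 240 CPM with LPS, and in KD 33, 46.2 and 39.2 CPM and 186, 157 and 192 CPM. Every LPS-treated library lay above every unstimulated library, and the lowest unstimulated values were those of WT. The increase was 11.2-fold in WT (log2 fold change 3.48, SE 0.18, edgeR adjusted p 4.28e-12), 6.44-fold in SCR (2.69, SE 0.17, edgeR adjusted p 3.33e-10) and 4.52-fold in KD (2.18, SE 0.17, edgeR adjusted p 7.25e-09).

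NFE2L2 itself (ENSG00000116044, GRCh37 chromosome 2, from 178083395 to 178257484) went from 55.6, 39.5 and 40.4 to 92.4, 80.7 and 74.4 CPM in WT. It went from 33.5, 53.1 and 55.4 to 109, 125 and 111 CPM in SCR, and from 52.7, 50.2 and 39.3 to 87.3, 105 and 85.7 CPM in KD. Groups with and without LPS did not overlap in any condition. The log2 fold changes were 0.87 in WT (SE 0.17, edgeR adjusted p 0.00102), 1.29 in SCR (SE 0.17, edgeR adjusted p 1.65e-05) and 0.97 in KD (SE 0.17, edgeR adjusted p 5.63e-04). NQO1 (ENSG00000181019, GRCh37 chromosome 16, from 69740899 to 69760571), a quinone reductase, rose less. Its means were 126 ± 12.4, 125 ± 5.67 and 118 ± 8.88 CPM in unstimulated WT, SCR and KD and 181 ± 2.08, 167 ± 14 and 151 ± 1.37 CPM with LPS (SD, n = 3 each), with log2 fold changes of 0.52 (SE 0.09, edgeR adjusted p 3.40e-04), 0.42 (SE 0.09, edgeR adjusted p 0.00306) and 0.36 (SE 0.09, edgeR adjusted p 0.0130). The NQO1 call in KD was lost without unstimulated KD replicate 2 (0.30, edgeR adjusted p 0.0653) and in a fit to the libraries of that comparison alone (0.35, edgeR adjusted p 0.0812).

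The 2 subunits of glutamate-cysteine ligase, which makes the rate-limiting step of glutathione synthesis, parted. GCLM (ENSG00000023909, GRCh37 chromosome 1, from 94350755 to 94375012) had 77.4 to 110 CPM in the unstimulated libraries and 194 to 300 CPM in the LPS-treated ones, with log2 fold changes of 1.47 in WT (SE 0.13, edgeR adjusted p 6.66e-08), 1.58 in SCR (SE 0.14, edgeR adjusted p 2.90e-08) and 1.47 in KD (SE 0.13, edgeR adjusted p 1.02e-07). GCLC (ENSG00000001084, GRCh37 chromosome 6, from 53362139 to 53481768) stood between 14.8 and 23.2 CPM in all 18 libraries and did not pass the threshold, with log2 differences of 0.33 in WT (95% interval 0.03 to 0.62, edgeR adjusted p 0.146), 0.10 in SCR (95% interval -0.20 to 0.40) and 0.06 in KD (95% interval -0.24 to 0.35). Counts of GCLM per count of GCLC were 4.99, 4.77 and 5.24 in unstimulated WT and 11.9, 11.8 and 9.28 with LPS. They were 4.15, 6.43 and 4.68 in unstimulated SCR and 14.7, 13.0 and 13.7 with LPS, and 5.91, 4.68 and 4.52 in unstimulated KD and 15.8, 13.1 and 12 with LPS. The ratio was thus higher with LPS in every library of each condition, with an exact two-sided permutation p of 0.1 in each, which is the smallest that 3 against 3 libraries can give.

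TXNRD1 (ENSG00000198431, GRCh37 chromosome 12, from 104609557 to 104744085), the cytosolic thioredoxin reductase, went from 75.4, 57.4 and 55.0 to 140, 150 and 93.3 CPM in WT. It went from 64.1, 68.3 and 79.8 to 183, 194 and 142 CPM in SCR and from 87.2, 51.2 and 57.3 to 185, 208 and 174 CPM in KD. LPS-treated libraries lay above unstimulated libraries in each condition, and WT replicate 6 was the lowest of the LPS-treated. The log2 fold changes were 1.03 (SE 0.19, edgeR adjusted p 5.56e-04), 1.29 (SE 0.19, edgeR adjusted p 6.02e-05) and 1.53 (SE 0.19, edgeR adjusted p 8.96e-06).

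GCLM and TXNRD1 are the members in whose promoter windows the core of the antioxidant response element was found, which is why these windows are shown. The motif TGACNNNGC was searched on both strands in RefSeq windows (GRCh38.p14) from 250 bases before to 50 bases after each start site. It was in 3 of the 10 windows of the 8 members that matched an entry, and in 13.3% of all 35116 windows. HMOX1 and FTH1 had no entry. Elements farther from a start site would not be found, so the search cannot tell whether the other members lack the element. Each line holds the motif in capitals with the bases on either side, running no further than the start site, and for GCLM and the downstream TXNRD1 start the motif lies on the other strand and reads TGACTAAGC and TGACAAAGC there. It lies 25 bases before the GCLM start (chr1:93909431-93909504, minus strand), and 90 and 93 bases before the TXNRD1 starts (chr12:104215640-104215728 and chr12:104286890-104286978, plus strand).
GCLM: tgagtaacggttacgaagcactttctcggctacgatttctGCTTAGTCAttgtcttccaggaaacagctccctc
TXNRD1, upstream start: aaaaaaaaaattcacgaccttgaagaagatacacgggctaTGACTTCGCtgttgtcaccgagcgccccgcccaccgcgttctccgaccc
TXNRD1, downstream start: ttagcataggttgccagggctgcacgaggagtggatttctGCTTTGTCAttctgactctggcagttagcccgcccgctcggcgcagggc
Binding to these sites was not measured.

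Ferritin heavy chain FTH1 (ENSG00000167996, GRCh37 chromosome 11, from 61727190 to 61735106) had 2100, 2460 and 2700 CPM in unstimulated WT and 5540, 5650 and 5630 CPM with LPS. In SCR it had 3320, 3740 and 3460 CPM and 5140, 5800 and 5610 CPM with LPS, and in KD 2830, 3170 and 3040 CPM and 4600, 4570 and 4620 CPM with LPS. Without LPS all SCR and KD libraries lay above all WT libraries, and with LPS all KD libraries lay below all others. The increase with LPS was 2.31-fold in WT (log2 fold change 1.21, SE 0.08, edgeR adjusted p 2.78e-10), 1.57-fold in SCR (0.65, SE 0.08, edgeR adjusted p 4.96e-06) and 1.53-fold in KD (0.61, SE 0.08, edgeR adjusted p 1.38e-05). Light chain FTL (ENSG00000087086, GRCh37 chromosome 19, from 49468566 to 49470136) had 3540, 3930 and 3910 CPM in unstimulated WT and 4810, 5030 and 5070 CPM with LPS (log2 fold change 0.39, SE 0.06, edgeR adjusted p 1.94e-04). In SCR it had 4590, 4660 and 4520 against 4610, 4970 and 5070 CPM (0.09, 95% interval -0.04 to 0.22) and in KD 4420, 4900 and 4890 against 5070, 4860 and 5320 CPM (0.10, 95% interval -0.03 to 0.24), neither past the threshold. The loop of the iron-responsive element, CAGTGN, lies on the sense strand 39 bases after the start site of the FTL entry (chr19:48965333-48965358, RefSeq GRCh38.p14, plus strand, loop in capitals). The same letters stood in 32.1% of all windows and in 2 of the 10 member windows, so that the letters alone are common.
FTL: gtctcttgcttcaaCAGTGTttggac
Translation through this element was not measured by counting mRNA.

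**Figure D2:**
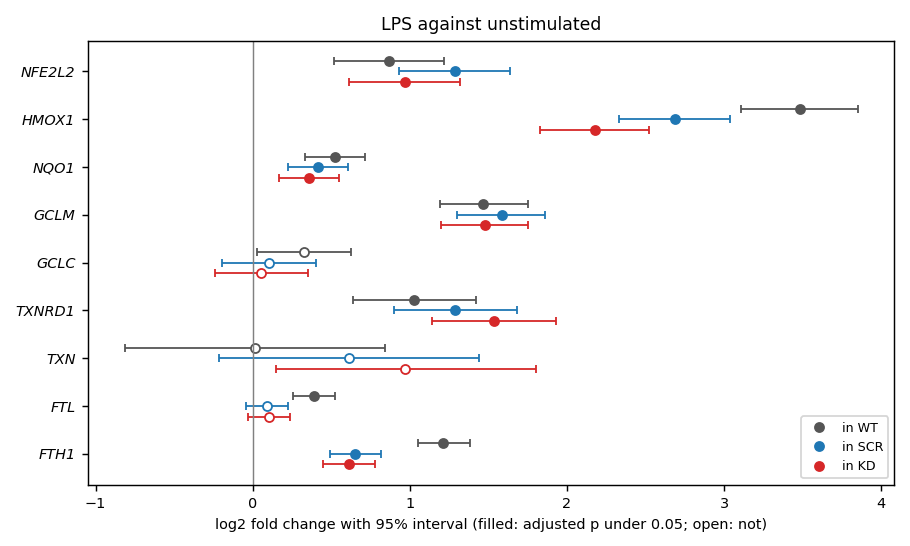
Log2 fold change of the 9 tested members between LPS-treated and unstimulated cells within WT (grey), SCR (blue) and KD (red), with 95% intervals from the edgeR fit; filled points passed an adjusted p of 0.05. HMOX1 runs from 3.48 in WT through 2.69 in SCR to 2.18 in KD, and FTH1 from 1.21 in WT to 0.65 and 0.61.

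Whether these responses differed between conditions was tested as an interaction. In KD against WT, 2 of 9 members had a smaller response on the log2 scale, where 0.3% of all genes did: HMOX1 by -1.30 (SE 0.23, edgeR adjusted p 0.0113) and FTH1 by -0.60 (SE 0.11, edgeR adjusted p 0.0164). In SCR against WT 1 member had a smaller response, where 0.216% of all genes did, FTH1 by -0.56 (SE 0.11, edgeR adjusted p 0.0329), and HMOX1 gave -0.80 (SE 0.23, edgeR adjusted p 0.279). In KD against SCR 0 of 9 members differed by edgeR or DESeq2, as did 0% of all genes, with 1 member at an unadjusted p under 0.05 (HMOX1, -0.51, SE 0.23, p 0.0369, edgeR adjusted p 0.637) and 7.64% of all genes. The KD against WT and SCR against WT responses share the WT libraries. The HMOX1 call was lost without LPS-treated KD replicate 5 (-1.22, edgeR adjusted p 0.0548). The FTH1 call held in 7 of the 12 fits that left out a library for KD against WT (edgeR adjusted p 0.00364 to 0.0588), and in 4 of 12 for SCR against WT (0.00820 to 0.149), where it was also lost when counts of FTH1 pseudogenes were added (-0.49, edgeR adjusted p 0.0982).

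KD was compared with SCR to see what the TRAFD1 siRNA changed. Of the 9 members tested, 0 differed without LPS and 0 with LPS by edgeR, and 0 by DESeq2; of all genes 0.066% and 0% were called. At an unadjusted p under 0.05 there was 1 member in each state, FTH1, and 12.6% and 11.8% of all genes. FTH1 was lower in KD by -0.22 on the log2 scale without LPS (SE 0.08, unadjusted p 0.0104, edgeR adjusted p 0.229) and by -0.26 with LPS (SE 0.08, unadjusted p 0.00307, edgeR adjusted p 0.214), with no overlap of the libraries in either state. In a fit to the 6 LPS-treated KD and SCR libraries alone FTH1 passed the threshold (-0.27, edgeR adjusted p 0.0497).

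For the other members, the difference of KD from SCR without LPS was 0.22 (SE 0.17) for HMOX1, -0.09 (SE 0.09) for NQO1, -0.11 (SE 0.19) for TXNRD1, 0.24 (SE 0.40) for TXN and 0.05 (SE 0.06) for FTL on the log2 scale. NFE2L2 (0.0089, SE 0.17), GCLM (0.03, SE 0.13) and GCLC (0.0017, SE 0.14) were at almost the same level, and their sign, like those of TXNRD1 and TXN, turned when a library was left out. The edgeR adjusted p of these 8 members ran from 0.635 (HMOX1) to 0.998 (GCLC). With LPS the differences were -0.31 (SE 0.17) for NFE2L2, -0.29 (SE 0.16) for HMOX1, -0.14 (SE 0.09) for NQO1, -0.08 (SE 0.13) for GCLM, -0.05 (SE 0.14) for GCLC, 0.13 (SE 0.18) for TXNRD1, 0.60 (SE 0.40) for TXN and 0.06 (SE 0.06) for FTL, with edgeR adjusted p between 0.476 and 0.928. The 95% intervals allow a change of NFE2L2 from -0.34 to 0.36 without LPS and from -0.66 to 0.03 with LPS. TXN with LPS passed the threshold when low counts were not filtered (0.59, edgeR adjusted p 3.31e-05). Its difference was almost the same in that fit and its libraries overlapped, so this p-value does not reflect their spread.

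**Figure D3:**
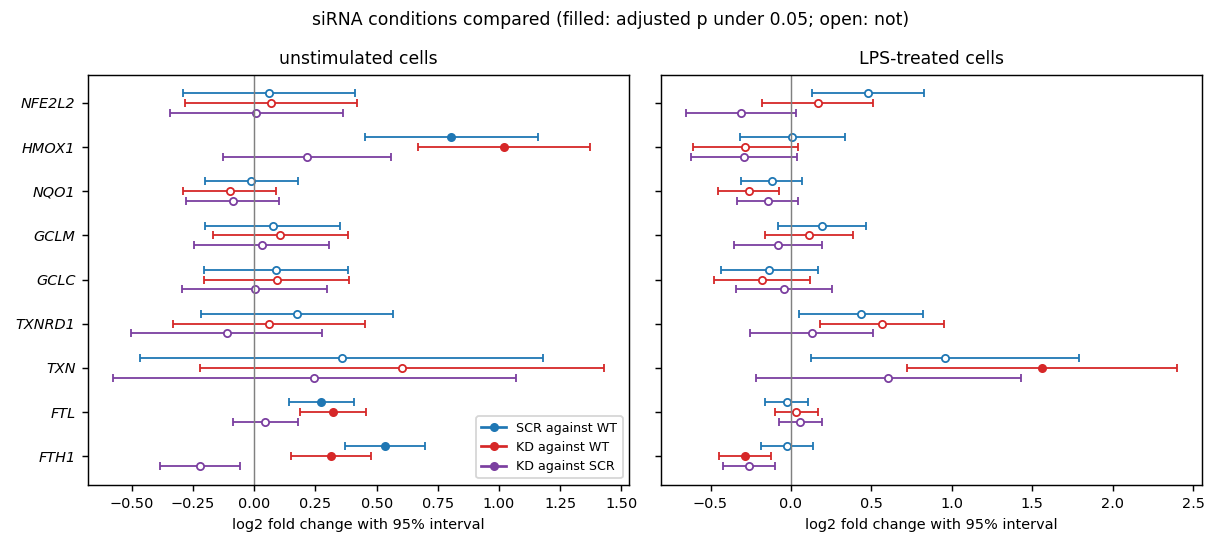
Log2 fold changes of the 9 tested members between the siRNA conditions, with 95% intervals from the edgeR fit, in unstimulated (left) and LPS-treated cells (right, on its own horizontal scale); filled points passed an adjusted p of 0.05. HMOX1, FTL and FTH1 were above WT in unstimulated SCR and KD, and no member passed the threshold in KD against SCR.

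SCR against WT measures the control siRNA, with or without the reagent. Without LPS, 3 of 9 members were higher in SCR, where 1.78% of all genes were higher. HMOX1 was 1.75-fold higher (log2 fold change 0.80, SE 0.17, edgeR adjusted p 0.0111), FTH1 1.45-fold (0.53, SE 0.08, edgeR adjusted p 5.17e-04) and FTL 1.21-fold (0.27, SE 0.06, edgeR adjusted p 0.0223), each with every SCR library above every WT library. NFE2L2 differed by 0.06 (95% interval -0.29 to 0.41), NQO1 by -0.01 (95% interval -0.20 to 0.18) and GCLM by 0.08 (95% interval -0.20 to 0.35). The HMOX1 call was lost without WT replicate 1 (0.67, edgeR adjusted p 0.0655) and without SCR replicate 2 (0.55, edgeR adjusted p 0.0648). The FTL call held in 2 of the 6 fits that left out a library, with log2 fold changes of 0.23 to 0.30 (edgeR adjusted p 0.0242 to 0.111).

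With LPS 0 of 9 members differed between SCR and WT by edgeR or DESeq2, where 0.114% of all genes did. At an unadjusted p under 0.05 there were 3 members, NFE2L2 (0.48, SE 0.17, edgeR adjusted p 0.239), TXNRD1 (0.44, SE 0.19, edgeR adjusted p 0.311) and TXN (0.96, SE 0.40, edgeR adjusted p 0.301), against 13.7% of all genes, and without the filter on low counts 3 members passed the threshold. With the replicate number as a block the count of members stayed at 0, while that of all genes went to 64 higher and 71 lower. HMOX1 differed by 0.0085 (95% interval -0.32 to 0.34) and FTH1 by -0.02 (95% interval -0.19 to 0.14).

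KD against WT shares its WT libraries with the comparison just given. Without LPS 3 of 9 members were higher, where 5.85% of all genes were higher and 5.85% lower. HMOX1 was 2.03-fold higher (log2 fold change 1.02, SE 0.17, edgeR adjusted p 6.06e-04), FTL 1.25-fold (0.32, SE 0.06, edgeR adjusted p 0.00276) and FTH1 1.24-fold (0.31, SE 0.08, edgeR adjusted p 0.0120). The FTH1 call was lost without WT replicate 1 (0.22, edgeR adjusted p 0.0804), with pseudogene counts added (0.24, edgeR adjusted p 0.0575) and in a fit to these 6 libraries alone (0.36, edgeR adjusted p 0.136), as was that of FTL in the last (0.37, edgeR adjusted p 0.0835).

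With LPS 1 member was higher in KD than in WT and 1 lower, where 6.29% of all genes were higher and 4.55% lower. TXN was 2.95-fold higher (log2 fold change 1.56, SE 0.40, edgeR adjusted p 0.0183) and FTH1 was 0.821-fold the WT level (-0.29, SE 0.08, edgeR adjusted p 0.0239). TXNRD1 (0.57, SE 0.19, edgeR adjusted p 0.0537) and NQO1 (-0.26, SE 0.09, edgeR adjusted p 0.0673) did not pass, although their libraries did not overlap, and both passed by DESeq2 (DESeq2 adjusted p 0.0279 and 0.0151). Of 5 alternatives that kept every library, 1 left this result unchanged for TXNRD1 and 2 for NQO1. Of 6 fits that left out a library, 5 and 6 did. The TXN call was lost without WT replicate 6 (1.26, edgeR adjusted p 0.112) and without KD replicate 5 (1.49, edgeR adjusted p 0.0617). The FTH1 call was lost in all 6 fits that left out a library (log2 fold change -0.30 to -0.28, edgeR adjusted p 0.0560 to 0.0971).

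Heavy and light ferritin chains assemble in proportions that vary with cell type, and their counts were set against each other within each library, where library scaling cancels. FTH1 per FTL was 0.594, 0.626 and 0.691 in unstimulated WT, 0.725, 0.802 and 0.766 in SCR and 0.640, 0.646 and 0.621 in KD. With LPS it was 1.15, 1.12 and 1.11 in WT, 1.11, 1.17 and 1.11 in SCR and 0.907, 0.941 and 0.869 in KD. KD libraries lay below SCR libraries in both states, by -0.129 without and -0.224 with LPS, and with LPS also below WT by -0.222. The exact two-sided permutation p was 0.1 for each, the smallest that this design allows. With counts of ferritin pseudogenes added to their parent genes the LPS-treated means were 1.38 in KD and 1.78 in both SCR and WT.

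**Figure D4:**
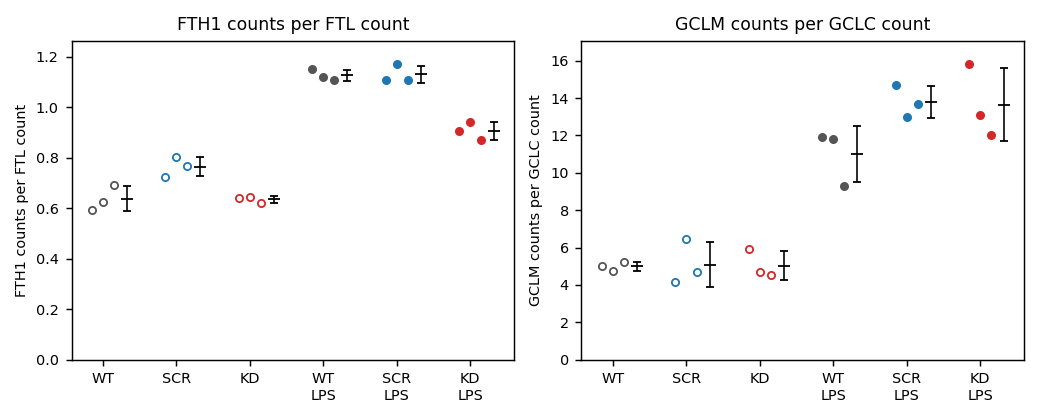
Counts of FTH1 per count of FTL (left) and of GCLM per count of GCLC (right) in each library; open points are unstimulated, filled points LPS-treated, and black bars are the mean with its SD (n = 3). With LPS the FTH1 per FTL ratio is 0.869 to 0.941 in KD and at least 1.11 in every WT and SCR library, while the GCLM per GCLC ratio is over 9 in every LPS-treated library.

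TXN (ENSG00000136810, GRCh37 chromosome 9, from 113006090 to 113018787), thioredoxin itself, varied widely within groups. Without LPS it had 216, 110 and 95 CPM in WT, 178, 152 and 210 CPM in SCR and 388, 102 and 149 CPM in KD. With LPS it had 170, 179 and 75.1 CPM in WT, 262, 400 and 161 CPM in SCR and 415, 459 and 379 CPM in KD. Unstimulated KD replicate 1 was at the level of LPS-treated KD, and WT replicate 6 was the lowest of all. Without KD replicate 1 the difference of KD from SCR in unstimulated cells turned from 0.24 to -0.52 (edgeR adjusted p 0.487). The LPS difference of TXN was 0.01 in WT, 0.61 in SCR and 0.97 in KD, none past the threshold (edgeR adjusted p 0.989, 0.320 and 0.123). When KD replicate 1 was left out, the TXN difference in KD passed (1.74, edgeR adjusted p 0.00151). Without the filter on low counts the differences in SCR and KD stayed at 0.61 and 0.97, but their edgeR adjusted p fell to 1.28e-06 and 3.88e-16. Libraries with and without LPS overlapped in both conditions, so p-values this small do not reflect the spread of TXN between libraries.

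Processed pseudogenes, intronless copies of an mRNA in the genome, can share reads with TXN and the ferritins. The 7 TXNP pseudogenes took 11.4% to 19.8% of the counts of TXN and TXNP together, the 16 FTLP pseudogenes 0.186% to 1.96% of those with FTL, and the 25 FTH1P pseudogenes 33.4% to 38.7% of those with FTH1. FTH1P10 alone held most of the last, 0.456 to 0.615 counts per count of FTH1. FTH1P10 moved with FTH1 under LPS, by log2 fold changes of 1.12 in WT (edgeR adjusted p 2.22e-07), 0.71 in SCR (edgeR adjusted p 1.28e-04) and 0.47 in KD (edgeR adjusted p 0.00704). In LPS-treated KD against WT it was -0.58 (edgeR adjusted p 0.00347). Unstimulated FTH1P10 did not pass against WT in SCR (0.32, edgeR adjusted p 0.116) or KD (0.07, edgeR adjusted p 0.747), where FTH1 did (0.53 and 0.31). Its mean count per count of FTH1 was 0.601 in unstimulated WT, 0.518 in SCR and 0.507 in KD.

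The other FTH1 pseudogenes had another pattern. Their sum was 121, 144 and 52.9 CPM in LPS-treated WT, 247, 323 and 121 CPM in SCR and 380, 415 and 312 CPM in KD, and without LPS 229 CPM in KD replicate 1 against 45.4 and 63.3 CPM in KD replicates 2 and 3. Of 13 FTH1P pseudogenes tested, 11 were higher and 1 (FTH1P10) lower in LPS-treated KD than in WT, and 0 differed between KD and SCR by edgeR (with 3 at an unadjusted p under 0.05 with LPS and 1 without). Of all genes 6.29% were higher and 4.55% lower in LPS-treated KD than in WT. Between KD and SCR 0% of all genes with LPS and 0.066% without were called, and 11.8% and 12.6% had such an unadjusted p. In LPS-treated KD against WT, FTH1P20 was higher by 1.1 (edgeR adjusted p 0.0456), FTH1P8 by 1.82 (edgeR adjusted p 0.0221) and FTLP3 by 2.58 (edgeR adjusted p 0.00272), and the calls held in 1, 2 and 6 of 6 fits that left out a library. The summed TXNP counts were 83.7, 81.7 and 72.8 CPM in LPS-treated KD and 36.5, 43.7 and 10.5 CPM in WT. Over the 18 libraries the log2 CPM of TXN had a Pearson r of 0.970 with the summed TXNP, 0.947 with FTH1P other than FTH1P10 and 0.88 with summed FTLP, but 0.0077 with FTH1P10, which in turn had 0.956 with FTH1. These libraries share their groups and their counting, and the part that pseudogene reads play in the TXN values was not tested beyond the sums, with which TXN in LPS-treated KD against WT was 1.53 (edgeR adjusted p 0.0224).

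**Figure D5:**
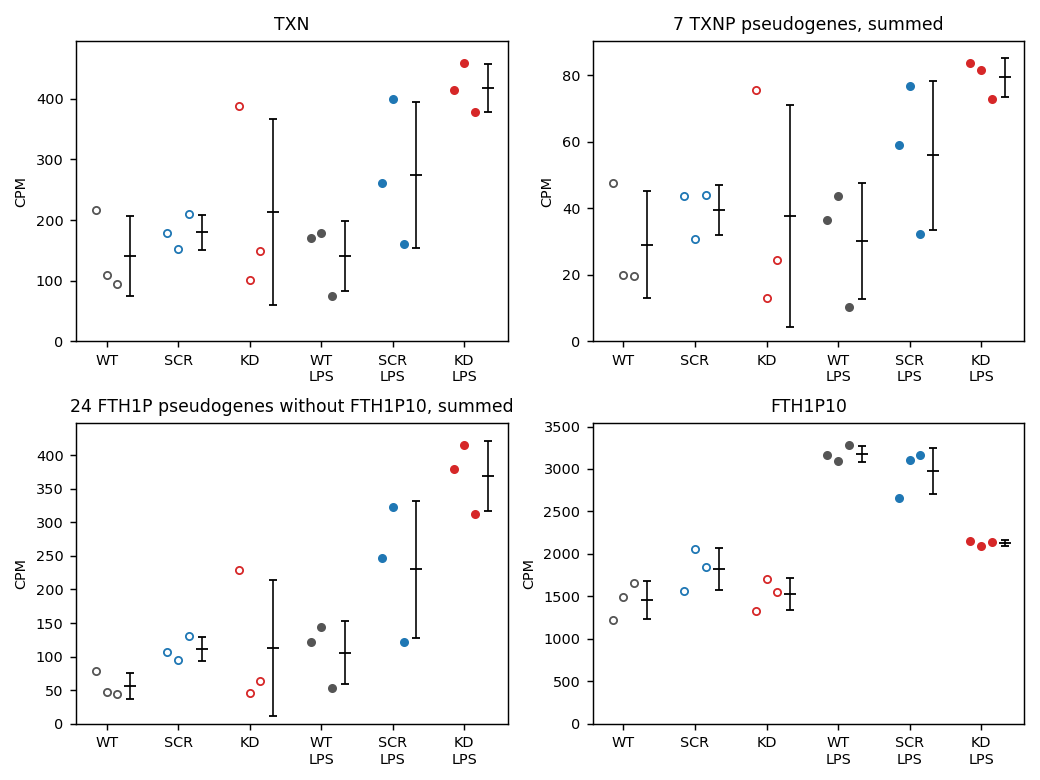
TXN, the 7 TXNP pseudogenes summed, the 24 FTH1P pseudogenes other than FTH1P10 summed, and FTH1P10, in CPM in each library; open points are unstimulated, filled points LPS-treated, and black bars are the mean with its SD (n = 3). The first 3 panels share their high libraries, unstimulated KD replicate 1 (388, 75.6 and 229 CPM), SCR LPS replicate 5 (400, 76.7 and 323 CPM) and LPS-treated KD, while FTH1P10 is lowest among LPS-treated libraries in KD.

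Other genes of the pathway were examined from 4 lists. Of the 11 NRF2 regulators, all tested, 1 was higher and 2 lower with LPS in WT, 2 and 1 in SCR, and 3 and 1 in KD, where of all genes 7.01% and 7.26%, 8.64% and 8.56%, and 6.41% and 5.05% were. SQSTM1, the autophagy receptor that can sequester KEAP1, rose from a mean of 195 to 612 CPM in WT (log2 fold change 1.65, edgeR adjusted p 4.28e-12), from 300 to 621 CPM in SCR (1.05, edgeR adjusted p 8.91e-09) and from 281 to 551 CPM in KD (0.97, edgeR adjusted p 3.51e-08). NFE2L1, a related factor, was lower in all 3 (-0.46, -0.58 and -0.49). MAFG, a small MAF partner, was higher in SCR (0.48) and KD (0.69), and did not pass in WT (0.32, edgeR adjusted p 0.087). The kinase gene GSK3B was lower in WT (-0.53; held in 3 of 6 fits that left out a library, edgeR adjusted p up to 0.174), and did not pass in SCR (-0.27) or KD (-0.04). KEAP1 was higher with LPS in KD (0.40, edgeR adjusted p 0.0107). It did not pass in WT (0.28, edgeR adjusted p 0.058) or SCR (0.22, edgeR adjusted p 0.125), although libraries overlapped in no condition. The KEAP1 response in KD differed from that in WT by 0.12 (edgeR adjusted p 0.741). Unstimulated KD had less KEAP1 than WT (-0.39, edgeR adjusted p 0.0136). That call held in 4 of 6 fits that left out a library (edgeR adjusted p up to 0.112) and in 4 of 5 alternatives that kept every library. SQSTM1 was also higher than WT without LPS in SCR (0.62, edgeR adjusted p 1.93e-04) and KD (0.53, edgeR adjusted p 3.51e-04), and NFE2L1 in SCR (0.35, edgeR adjusted p 0.0281; held in 1 of 6 fits that left out a library, edgeR adjusted p up to 0.131). The SQSTM1 response was smaller than in WT in SCR (-0.60, edgeR adjusted p 0.0283) and KD (-0.68, edgeR adjusted p 0.00920). With a library left out the SQSTM1 call held in 2 of 12 fits for SCR (edgeR adjusted p up to 0.119) and in 12 of 12 for KD. BACH1, a repressor that competes at antioxidant response elements, was higher in LPS-treated KD than in WT (0.79, edgeR adjusted p 0.0355), 16.2 to 19.7 against 8.52 to 12.5 CPM, a call that held in 2 of 6 such fits (edgeR adjusted p up to 0.129).

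Of 36 other NRF2 targets 33 were tested. With LPS 9 were higher and 1 lower in WT, 6 and 2 in SCR, and 7 and 2 in KD. Of all genes 7.01% and 7.26%, 8.64% and 8.56%, and 6.41% and 5.05% were. OSGIN1, an oxidative stress-induced growth inhibitor, rose from a mean of 6.49 to 35.6 CPM in WT (2.44, edgeR adjusted p 5.78e-08) and from 12 to 34.0 CPM in SCR (1.5) and 9.05 to 25.8 CPM in KD (1.52). TRIM16 rose by 1.73, 0.89 and 0.98 in WT, SCR and KD (edgeR adjusted p 7.85e-08, 5e-04 and 2.48e-04), and GSR, glutathione reductase, by 0.52, 0.93 and 0.90 (edgeR adjusted p 0.00648, 1.89e-05 and 4.14e-05). ABCC3, an efflux pump for organic anions that was named after its values were seen, rose by 2.54, 1.19 and 0.81 (edgeR adjusted p 6.85e-07, 0.00272 and 0.0428), and its response was smaller in KD than in WT (-1.72, edgeR adjusted p 0.0457), the 1 gene of this list called in that comparison. Of all genes 0.3% had a smaller response there. That ABCC3 call held in 3 of 12 fits that left out a library (edgeR adjusted p up to 0.168), and the call of its rise in KD in 1 of 6 (up to 0.183). IDH1, an NADPH-producing isocitrate dehydrogenase, was lower in all 3 conditions (-0.89, -0.73 and -0.44), and BLVRB, a biliverdin reductase, in SCR (-0.44) and KD (-0.58). The BLVRB call in SCR held in 3 of 6 fits that left out a library (edgeR adjusted p up to 0.128). Against WT without LPS, 2 of 33 were higher in SCR, AKR1C2 (1.88, edgeR adjusted p 0.00610) and OSGIN1 (0.87, edgeR adjusted p 0.0342; held in 2 of 6 fits that left out a library, up to 0.15), and 8 were higher and 1 lower in KD, among them BLVRB (0.63, edgeR adjusted p 0.00273), AKR1C2 (1.52, edgeR adjusted p 0.00995) and, lower, IDH1 (-0.31, edgeR adjusted p 0.0262; held in 2 of 6, up to 0.0958). Of all genes 1.78% were higher in SCR, and in KD 5.85% were higher and 5.85% lower. AKR1C2 shares near-identical sequence with AKR1C1 and had at most 104 counts, so its value is uncertain. With LPS KD against WT gave 1 higher, MGST1 (1.33, edgeR adjusted p 0.00792), and 2 lower, TRIM16 (-0.67, edgeR adjusted p 0.0107) and TALDO1 (-0.25, edgeR adjusted p 0.0428). Of all genes 6.29% were higher and 4.55% lower. The MGST1 and TRIM16 calls held in 5 and 4 of 6 fits that left out a library, and that of TALDO1 in 0 of 6 (edgeR adjusted p 0.0664 to 0.197).

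Of 22 genes of iron handling 16 were tested, and with LPS 2 were higher and 1 lower in WT, 2 and 0 in SCR, and 3 and 1 in KD. Of all genes 7.01% and 7.26%, 8.64% and 8.56%, and 6.41% and 5.05% were. SLC11A2, the divalent metal transporter, rose in all 3 (1.34, 1.17 and 0.93; edgeR adjusted p 2.92e-09, 3.25e-08 and 1.56e-06), and in LPS-treated cells was lower in KD than in WT (-0.49, edgeR adjusted p 0.00513). SLC39A8, a zinc and iron importer, rose in WT (1.02), SCR (1.13) and KD (1.1). FLVCR1, a haem exporter, rose in KD by 0.69, and by 0.29 in both WT and SCR without passing (edgeR adjusted p 0.162 and 0.134). SLC11A1, a metal transporter of phagosomes, was lower with LPS in KD (-0.42, edgeR adjusted p 0.0357), a call that held in 2 of 6 fits that left out a library (up to 0.231). In WT (-0.21) and SCR (-0.26) it did not pass. SLC39A14 was lower with LPS in WT (-0.74, held in 4 of 6 such fits, up to 0.118), and did not pass in SCR (-0.49) or KD (-0.07). Its level was higher in LPS-treated KD than WT (0.67, edgeR adjusted p 0.0447, held in 2 of 6, up to 0.232). Without LPS 0 of the 16 differed between SCR and WT by edgeR, and 0 at an unadjusted p under 0.05. Of all genes 1.78% were higher by edgeR, and 17.2% had such an unadjusted p. Of 14 thioredoxin and peroxiredoxin partners 13 were tested, and with LPS 0 were higher by edgeR, while 3, 3 and 2 were lower in WT, SCR and KD. Of all genes 7.01%, 8.64% and 6.41% were higher and 7.26%, 8.56% and 5.05% lower. SESN2, a sestrin that responds to stress, fell from a mean of 135 to 34.0 CPM in WT (-1.99, edgeR adjusted p 9.91e-10), 144 to 31.6 CPM in SCR (-2.19) and 129 to 25.3 CPM in KD (-2.36), and the glutaredoxin gene GLRX2 was lower in all 3 (-0.54, -0.64 and -0.65). GLRX (1.1, edgeR adjusted p 0.0336) and PRDX3 (0.65, edgeR adjusted p 0.0372) were higher in LPS-treated KD than in WT, calls that held in 1 and 2 of 6 fits that left out a library (edgeR adjusted p up to 0.167 and 0.215). In KD against SCR 0 genes of the 4 lists were called by edgeR in either state. Of all genes 0.066% were called without LPS and 0% with LPS.

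By Pearson r of log2 CPM over the 18 libraries, which mix the 6 groups and both stimulation states, the genes most like HMOX1 were BCL3 (0.988) and ENSG00000129277 (0.987). GCLM was nearest to SAT1 and CCL2 (0.985 each), TXNRD1 to KYNU (0.981) and ELOA (0.98), and FTH1 to OSGIN1 (0.982) and SDC4 (0.981). NFE2L2 was nearest to NID1 (0.962) and TRA2B (0.959), NQO1 to HNRNPC (0.966) and STAT5A (0.959), and FTL to PPAN (0.936) and PGD (0.933). TXN was nearest to the pseudogenes HSPE1P2 (0.989) and SNRPEP4 (0.984), and GCLC to ZNF506 (0.782) and MORF4 (0.766). Among the members themselves, r ran up to 0.96 for HMOX1 with FTH1 and GCLM with TXNRD1, and was 0.16 for TXN with NQO1.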

How the data were processed

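RNA of 18 THP-1 libraries was made into QuantSeq 3′ libraries. Per the methods of the study, the authors removed low-quality and poly-A reads, aligned to GRCh37 with HISAT, counted with featureCounts in the terminal 500 bases of each Ensembl gene, and deposited raw read counts. How reads matching several places were counted is not given in the sources used here. All 18 columns were used and 0 left out. The samples were grouped by their labels. Symbols, gene positions and overlaps were taken from a GENCODE annotation lifted to GRCh37, which is later than the Ensembl release used for counting.

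Members and lists were chosen with earlier results of these data known. Genes were filtered with filterByExpr by group, leaving 16678. Means of 6 groups were fitted with edgeR 4.0.16 (TMM, quasi-likelihood F test) in R 4.3.3, adjusted by Benjamini-Hochberg over all genes tested at 0.05. SE was obtained from the log2 fold change and its F statistic. CPM use TMM-scaled totals. The edgeR p-values rest on a spread within groups estimated for each gene over all 18 libraries and moderated across genes. They do not measure the spread of the compared libraries alone, and a tight group takes on the spread of a wide one. With 3 libraries per group they speak for these libraries only. Two-sided exact permutation tests served for count ratios. The fit was run on simulated counts with the same dispersion for every gene and no outlying library. That run does not cover genes that vary as widely within groups as TXN.

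Named were the members, TRAFD1, TNF, IL1B and CXCL10, per list and pairwise comparison the 2 genes a direction with the smallest adjusted p past 0.05, pseudogenes, and the 2 genes most like each member. The KEAP1 response to LPS in KD, SQSTM1 as an interaction and ABCC3 were named after their values were seen. Alternatives were RLE size factors, no filter, DESeq2 1.42.0, a replicate block, the libraries of a comparison alone, added pseudogene counts, and each library left out. Same-numbered libraries deviated together in SCR against WT with LPS only (correlations of 0.261, 0.163 and 0.253).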

Additional observations from a re-analysis of the deposited data

Results flagged for a closer look

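Among the members and the 4 lists, the LPS response of 4 genes differed from that in WT by the interaction test of edgeR (Benjamini-Hochberg adjusted). FTH1 had a smaller response in SCR (-0.56 on the log2 scale, adjusted p 0.0329) and in KD (-0.60, adjusted p 0.0164), SQSTM1 in SCR (-0.60, adjusted p 0.0283) and in KD (-0.68, adjusted p 0.00920), HMOX1 in KD (-1.30, adjusted p 0.0113) and ABCC3 in KD (-1.72, adjusted p 0.0457). With a library left out, the FTH1 and SQSTM1 calls in SCR held in 4 and 2 of 12 fits, and those of FTH1, SQSTM1, HMOX1 and ABCC3 in KD in 7, 12, 11 and 3 of 12. FTH1, SQSTM1 and HMOX1 were also higher in unstimulated SCR and KD than in unstimulated WT, the libraries that both responses share, and ABCC3 in unstimulated KD (1.14, adjusted p 0.0107). In LPS-treated SCR against WT, HMOX1 differed by 0.0085, FTH1 by -0.02 and SQSTM1 by 0.02. In LPS-treated KD against WT, FTH1 was lower (-0.29, adjusted p 0.0239), and HMOX1 (-0.28, adjusted p 0.261) and SQSTM1 (-0.15, adjusted p 0.245) did not pass, with every KD library below every WT library for all 3.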

How the results depend on the processing

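The log2 fold changes given above for members, TRAFD1 and leading pseudogenes, and those of every list gene called, were recomputed. Under alternatives that kept every library 697 values kept their direction and side of the threshold, 42 lost and 18 gained the call, and 4 changed sign; in the fits that left out a library the numbers were 816, 192, 2 and 28. In KD against SCR without LPS, GCLC was -0.003066 with no filter on counts. In SCR against WT with LPS, HMOX1 was -0.002629 with RLE, -0.003563 with DESeq2 and -0.01094 in those libraries alone. The other sign changes came with a library left out. They gave, for KD against SCR, -0.19 to 0.14 for NFE2L2, -0.12 to 0.11 for GCLM, -0.105 to 0.0936 for GCLC, -0.38 to 0.0338 for TXNRD1 and -0.52 to 0.57 for TXN without LPS, and -0.16 to 0.0013 for GCLM and -0.13 to 0.0312 for GCLC with LPS. For SCR against WT they gave -0.07192 to 0.2626 for NFE2L2 and -0.06642 to 0.06704 for NQO1 without LPS, and -0.06335 to 0.09699 for HMOX1 and -0.05858 to 0.02323 for FTH1 with LPS. For the LPS response they gave -0.2053 to 0.468 for TXN in WT and -0.003343 to 0.1955 for GCLC in SCR.

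The counts of members called for LPS stayed within 1.5 times in each condition (5 to 7 in KD with a library left out, 6 in SCR, 7 in WT). Without the filter the count went from 0 to 1 for KD against SCR with LPS, from 0 to 3 for SCR against WT with LPS and from 1 to 3 for the difference of response of SCR from WT. The TXN calls gained for KD against SCR with LPS and for LPS in SCR and KD came with almost unchanged differences and overlapping libraries. They are not taken as results. In fits to the libraries of a comparison alone it went from 0 to 1 for KD against SCR with LPS, from 3 to 1 and from 2 to 5 for KD against WT without and with LPS, from 1 to 0 for the difference of response of SCR from WT and from 2 to 1 for that of KD from WT. DESeq2 called 4 members for KD against WT with LPS. The replicate block called 2 members for the difference of response of SCR from WT, where only the number is shared, and moved no other count of members by over 1.5 times. The numbers of the LPS-treated and unstimulated libraries do not overlap, so no paired analysis of the LPS response was possible.

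With a library left out, the counts ran from 1 to 3 for SCR against WT without LPS (1 without WT replicate 1 or SCR replicate 2), from 0 to 2 for KD against WT with LPS (0 without WT replicate 6 or KD replicate 5), from 0 to 1 for the difference of response of SCR from WT, and from 0 (without KD replicate 5) to 5 (without KD replicate 1) for that of KD from WT. The cause of these shifts was not tested. Over all genes, KD against SCR called 11 without and 0 with LPS, but 155 higher and 165 lower, and 282 higher and 143 lower, without the filter, 105 and 134, and 54 and 83, with DESeq2, and 75 and 108, and 50 and 35, with the replicate block. Adding pseudogene counts moved FTH1 per FTL to 1.03, 1.18 and 0.978 in unstimulated WT, SCR and KD. Depth limits AKR1C2, which rests on few counts.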
